A study of Mus musculus with 18 samples.

Results

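The comparison described here asks which genes responded differently to the first 24 h of exit from naive pluripotency when cells carried a permanently active ezrin. It is a difference of differences: the change from ESC to T24 in iEZR_CA cells minus the change from ESC to T24 in WT cells, called the interaction below and given on the log2 scale. A positive interaction means that a gene ended 24 h of exit relatively higher in iEZR_CA than the WT change would have put it. A negative interaction means the reverse. The comparison uses 12 of the 18 libraries of the series, 3 in each of the 4 groups. It was chosen as a contrast of the design, so no gene was selected to enter it, and every gene that passed the filter on low counts is a member.

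WT cells were mouse embryonic stem (ES) cells, which the paper gives as the line E14TG2a. iEZR_CA cells were ES cells with an integrated PiggyBac transgene that makes phosphomimetic ezrin when doxycycline is added, with the reporter mCherry on the same transcript. Cells of both lines were collected in 2i+LIF (ESC) and after 24 h in N2B27 medium without the inhibitors and LIF (T24). iEZR_CA cells were given doxycycline from about 16 h before exit, so their ESC libraries are already induced. For WT cells the sources mention no such treatment. The transgene, the drug and the history of the line cannot be told apart in any comparison of the lines. The remaining 6 libraries, taken at 48 h (T48), entered the estimate of the spread between replicates and 1 follow-up at the end.

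Naive ES cells are held in self-renewal by inhibition of MEK/ERK and GSK3 together with LIF. Once these are removed, a network of naive transcription factors is shut down, formative genes that mark the early post-implantation epiblast are switched on, and the de novo DNA methyltransferases rise. Ezrin is one of the ERM proteins, which tie the plasma membrane to the actin cortex when they are phosphorylated, and the tie is normally loosened during exit, which lets the cells spread.

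The 12 libraries held 13587076 to 33276622 reads counted on genes (median 21452071), and 18469 genes were tested with edgeR's quasi-likelihood test. The share of reads dropped for low alignment quality was 0.519% to 0.593% in WT and 0.889% to 1.02% in iEZR_CA libraries of the comparison, at both stages, and its part in the results was not tested. Pou5f1, Sox2 and Sall4, which define ES cells, had mean normalized counts of at least 6433 in all 4 groups. The labels tell the 3 libraries of a group apart by plate well only, and the paper describes them as independent biological replicates.

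Ezr itself, which the table counts from the endogenous gene and from the transgene together where the sequence is shared, was checked first. In WT cells its normalized count was 12017, 11805 and 11467 at ESC and 7890.0, 7703 and 7539 at T24. In iEZR_CA cells it was 25358, 24372 and 24728 at ESC and 21299, 20185 and 20894 at T24. All 6 iEZR_CA libraries lay above all 6 WT libraries, and the fall over 24 h was -0.62 in WT and -0.26 in iEZR_CA, an interaction of 0.36 (SE 0.04, adjusted p = 2.7e-13 by edgeR). With libraries scaled by their spike-in sequences in place of genes, this interaction no longer passed the threshold.

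Across all genes the lines moved mostly the same way, and the changes in iEZR_CA were more often smaller than larger. The change from ESC to T24 passed its test for 65.4% of genes in WT and for 56.0% in iEZR_CA. Among the 1087 genes with a mean normalized count above 50 that fell by more than a factor of 2 in WT, the median change was -1.59 in WT and -0.95 in iEZR_CA, and 93.2% had the same direction in both lines. Among the 802 genes that rose by more than a factor of 2 in WT, the medians were 1.58 and 1.27, with 96.4% in the same direction. Genes selected on the WT change are bound to look weaker in the other line, so the reverse selection was made as well. The 584 genes that fell by more than a factor of 2 in iEZR_CA had medians of -2.02 in WT and -1.46 in iEZR_CA, so that the WT fall was still the larger one, while the 724 genes that rose by more than a factor of 2 in iEZR_CA had medians of 1.49 in WT and 1.598 in iEZR_CA.

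The interaction was called for 7081 genes, 38.3% of those tested, at an adjusted p below 0.05, of which 3966 were positive and 3115 negative (56.0% positive). When libraries were scaled by the spike-in sequences, genes with an interaction numbered 2416, 1656 positive and 760 negative (68.5% positive). The replicates differed little, with a common biological coefficient of variation of 2.98%, and the median absolute interaction over all genes tested was 0.27. A second threshold was therefore used, an absolute interaction above 1 (a factor of 2) with a mean normalized count above 5, which 1525 genes passed, or 8.26% of those tested. Of these, 1005 were positive (5.44%) and 520 negative (2.82%).

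Most genes past the second threshold responded less in iEZR_CA cells. A response was called smaller where the WT change passed its test and the iEZR_CA change either did not pass or had the same sign and a smaller size, and 969 of the 1525 genes (63.54%) were of this kind, 5.25% of all genes tested. In 616 of them WT expression fell and in 353 it rose. The iEZR_CA change passed its own test in 498, with a median size of 41.9% of the WT change, and did not pass in 471. A larger response in iEZR_CA was found for 323 genes (21.18% of the 1525 and 1.75% of genes tested), 221 rising and 102 falling. An opposite response, with both changes called and of different sign, was found for 208 genes (13.64%, and 1.13% of genes tested). When changes had to exceed a factor of 1.5 by glmTreat, genes with an opposite response in iEZR_CA numbered 33. Of the 208, WT fell while iEZR_CA rose in 157, and WT rose while iEZR_CA fell in 51. In the remaining 25 of the 1525 genes neither change was called alone.

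**Figure D1:**
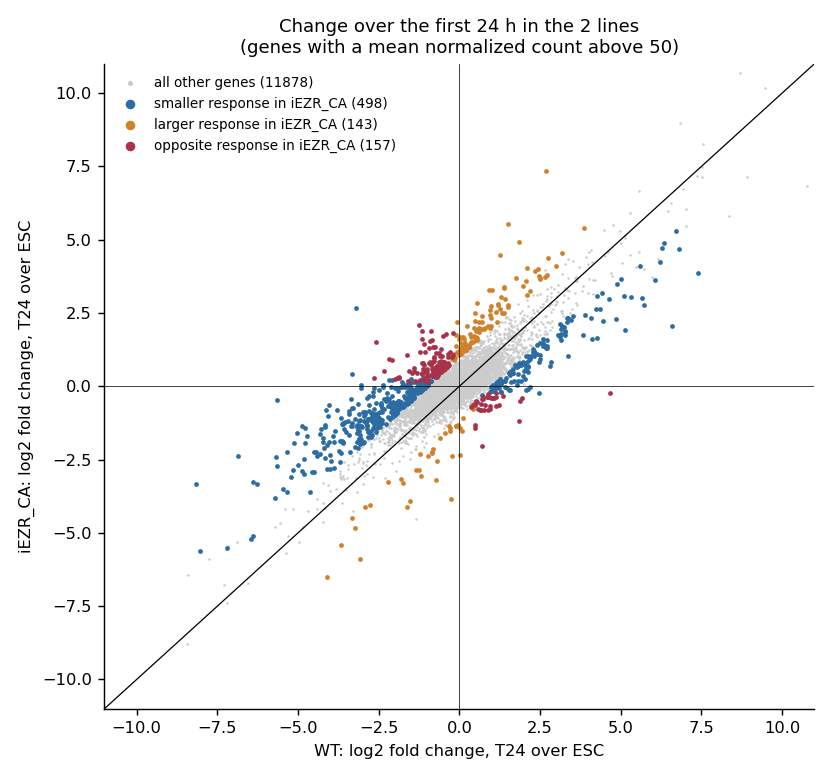
Each point is 1 gene with a mean normalized count above 50, with its log2 change from ESC to T24 in WT cells on the x axis and in iEZR_CA cells on the y axis, and colors mark the 498 smaller, 143 larger and 157 opposite responses beyond a factor of 2. The cloud runs along the diagonal (Pearson r = 0.841 across 12676 genes, which are not independent replicates), and the smaller responses lie on the side of the diagonal toward the horizontal line of no change in iEZR_CA, with some past that line where the iEZR_CA change was not called.

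Naive genes fell less in iEZR_CA. The list holds transcription factors and cofactors that keep ES cells in the naive state, along with other genes of these cells, such as Tdh and Fgf4. All 21 listed naive genes were tested and 20 had a called interaction, 15 positive and 5 negative, where 38.3% of all genes had one. Of these 20, 17 were smaller responses, 2 larger (Nr0b1, Tet2) and 1 opposite (Dppa5a), counted at the adjusted p alone, by which 24.4%, 9.47% and 3.93% of all genes were smaller, larger and opposite. The median change of the list was -1.98 in WT and -1.35 in iEZR_CA, and its median interaction was 0.586, beside 0.014 over all genes tested. For every list below, the background over all genes is 38.3% called, 21.5% called positive and 16.9% called negative. Among genes with a mean normalized count above 50, 41.8% to 52.7% were called on each autosome and the X chromosome.

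Tbx3, a T-box factor that sustains the naive state, showed the largest interaction of the list. Its normalized count was 7603, 7808 and 7837 in WT ESCs and 406, 394 and 358 in WT T24 cells. In iEZR_CA cells it was 7720.4, 7241 and 7552 at ESC and 2393, 2489.5 and 2407 at T24. The lines overlapped at ESC and were far apart at T24, where every iEZR_CA library was above every WT library, and the interaction was 2.69 (SE 0.06, adjusted p = 1.1e-42 by edgeR). Prdm14, which keeps the methyltransferase genes low in naive cells, went from 1908, 1887 and 1746 to 105, 124 and 88.3 in WT and from 1260.2, 1369 and 1362 to 344, 323 and 331 in iEZR_CA. It began lower in iEZR_CA and ended higher, with an interaction of 2.10 (95% confidence interval 1.90 to 2.30). Klf4 had an interaction of 2.15, Nanog of 1.98, Tfcp2l1 of 1.39 and Esrrb of 1.17.

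Other naive genes differed less or in the other direction. The receptor Nr5a2 fell less in iEZR_CA with an interaction of 0.75, Klf2 did not pass the test (0.41, SE 0.16, adjusted p = 0.062 by edgeR), and Tdh, a threonine-degrading enzyme of naive cells, fell almost equally in the lines (-2.15 and -2.02). The 5 negative members were Gbx2, Tet2, Fgf4, Dppa2 and Dppa4, and among them only Tet2 fell in WT. Gbx2 went from 456, 372 and 385 to 1003, 1022 and 933 in WT, and from 290.1, 235 and 256 to 227, 226 and 222 in iEZR_CA. It thus rose in WT and showed no called change in iEZR_CA, and no library of the lines overlapped at T24 (interaction -1.50, SE 0.12). Zfp42 fell by 0.57 on the log2 scale in WT and had a change of 0.01 in iEZR_CA. Of the 8 general pluripotency factors, 7 had a called interaction, 3 positive and 4 negative and none beyond a factor of 2, and the list median was -0.123.

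Formative genes rose in both lines, and where the lines differed the rise was weaker in iEZR_CA. Of 18 listed formative and early post-implantation genes 10 had a called interaction (55.6%, beside 38.3% of all genes). Of these 10, 9 were negative, and all 9 were smaller rises beyond a factor of 2. One of the 9, Pou3f1, lost its call for 7 of the 12 libraries left out in turn (-1.76 to -1.39). The tenth, Tead2, was a small opposite response (0.25). The median change was 3.45 in WT and 1.92 in iEZR_CA, with a median interaction of -0.958. Averaged over the list per library, log2(normalized count + 1) was 8.14, 8.155 and 7.997 in WT ESCs and 11.5, 11.4 and 11.4 in WT T24 cells, against 7.35, 7.37 and 7.60 in iEZR_CA ESCs and 9.82, 9.67 and 9.77 in iEZR_CA T24 cells. On this scale iEZR_CA cells were below WT before exit, and further below after it.

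Grhl2, an epithelial transcription factor that opens enhancers during this transition, had the largest negative interaction of the list. It rose from 89.9, 105 and 97.9 to 3446, 3527 and 3424 in WT, and from 182, 182 and 147 to 650.2, 621 and 678 in iEZR_CA. The order of the lines turned round: iEZR_CA was above WT in every library at ESC and below it in every library at T24, with an interaction of -3.22 (SE 0.11, adjusted p = 8.2e-36 by edgeR). Foxd3, a repressor required for exit, rose by 1.29 in WT and by 0.11 in iEZR_CA. Sall2 rose by 3.15 and 1.58, from a start that was already lower in iEZR_CA (mean 78.2 against 296). Lin28b, an RNA-binding protein that blocks let-7, rose by 1.77 and 0.66.

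Other formative genes rose alike in the lines, as far as the errors show. Sox3 rose by 3.62 in WT and 3.60 in iEZR_CA, and Sox12, Zic2 and Zic5 had interactions between -0.01 and 0.13. Zic2, a zinc finger factor, went from a mean of 1942 to 7631 in WT and from 888 to 3624 in iEZR_CA, so the lines kept the same ratio while both rose about equally. Etv1, a target of ERK signaling, also rose almost equally (1.07 and 0.97). The Zic2 interaction was 0.06 (SE 0.058), whereas that of Sox3 was less precise (-0.02, SE 0.20). Fgf5 could not be compared, since it was at the floor of detection, at most 3 counts in each library, in iEZR_CA ESCs.

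**Figure D2:**
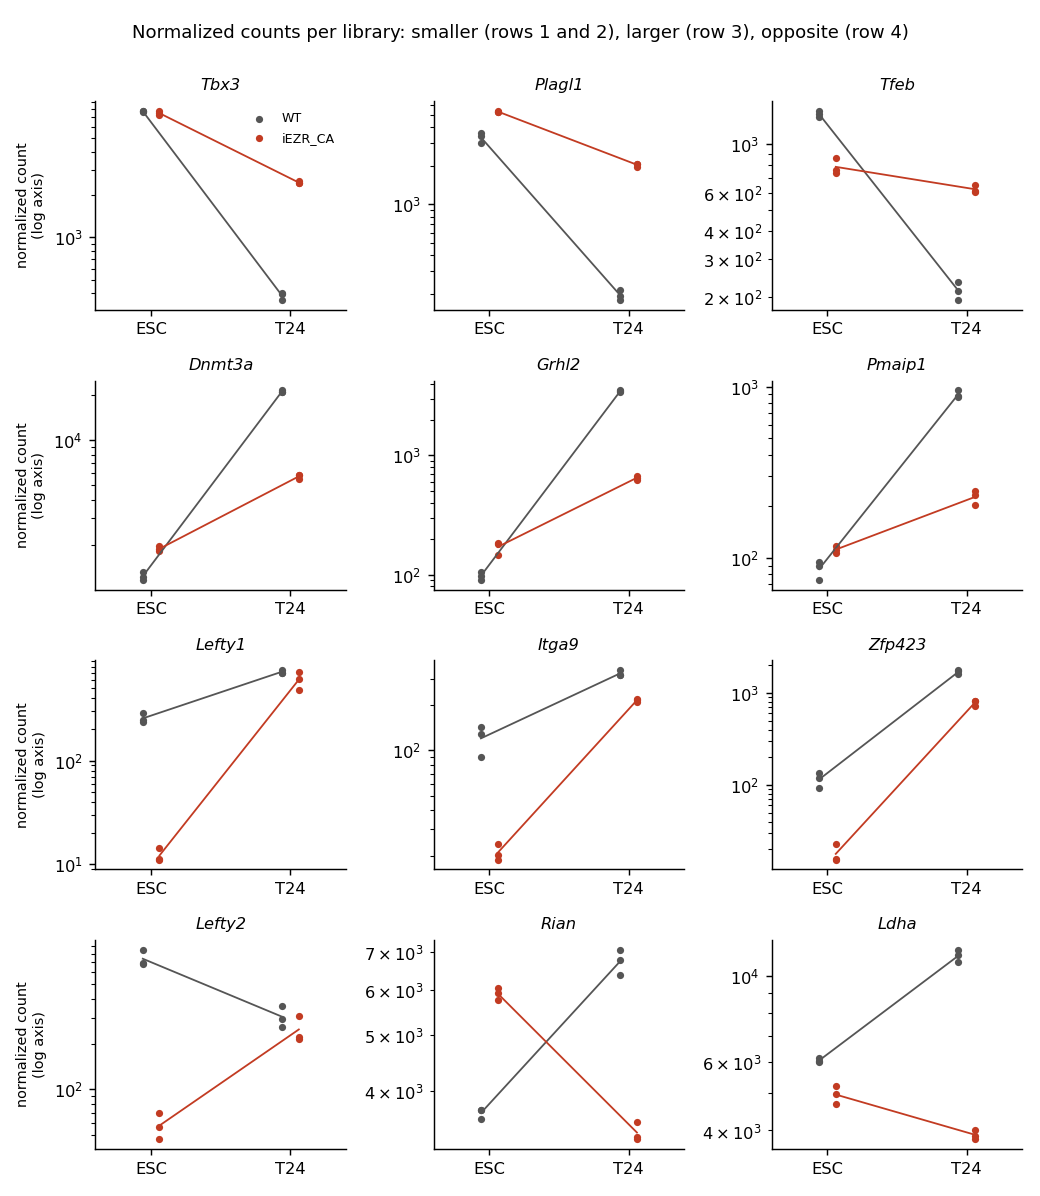
Normalized counts of single libraries on a log10 axis for 6 genes with smaller (upper 2 rows), 3 with larger and 3 with opposite responses (bottom row), with 3 points per group and a line between the means of the 3 libraries at ESC and T24 in each line of cells. Tbx3 ended at 358 to 406 in WT and at 2393 to 2489.5 in iEZR_CA, while the lines overlap at T24 in Lefty1 and Lefty2.

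Genes that establish DNA methylation rose less in iEZR_CA. The de novo methyltransferases Dnmt3a and Dnmt3b and their cofactor Dnmt3l place methyl groups on DNA that has lost them in naive cells. Dnmt3a rose from 1304, 1161 and 1225 to 21226, 21062 and 21655 in WT, but from 1828, 1859.9 and 1952 to 5843, 5847 and 5523 in iEZR_CA. iEZR_CA cells thus started above WT and ended below it, without overlap at either stage, and the interaction was -2.50 (SE 0.05, adjusted p = 1.6e-43 by edgeR).

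Dnmt3b and Dnmt3l behaved alike. Dnmt3b rose by 3.27 in WT and 1.74 in iEZR_CA (interaction -1.53), and its T24 counts were 30744, 31309 and 29666 in WT and 12600.2, 12273 and 11862 in iEZR_CA. Dnmt3l went from a mean of 529 to 21425 in WT and from 1837 to 15066 in iEZR_CA (interaction -2.28), with a larger difference between the lines at ESC than at T24. The maintenance genes Dnmt1 and Uhrf1 changed little in either line, with interactions of -0.09 and -0.03, of which only that of Dnmt1 was called. Of the 12 writers and erasers, 9 had a called interaction, 2 positive and 7 negative, and the 2 positive ones were Prdm14 and Zfp57.

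Germline genes that DNA methylation silences in the embryo were called in 18 of 22 cases, 17 of them negative, where 16.9% of all genes were called in that direction. In WT cells the list rose by a median of 0.789 over 24 h, and in iEZR_CA cells its median change was -0.001. The median interaction was -0.582, and 14 of the 18 were smaller and 4 larger responses. Mean log2(normalized count + 1) over the list was 7.13, 7.10 and 7.11 in WT ESCs and 7.86, 7.87 and 7.83 at T24, but 7.76, 7.78 and 7.84 in iEZR_CA ESCs and 7.72, 7.81 and 7.81 at T24. On this average, iEZR_CA cells held before exit about the level that WT cells reached after it. Single genes differed in both directions: Mael had a mean of 59.3 in iEZR_CA ESCs and 260 in WT T24 cells, and Asz1 had 56.4 and 18.2.

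For 20 of the 22 germline genes the RefSeq table of promoters (GRCm38.p6) gave the 250 bases before the start of a transcript, and these were searched for the letters CACGTG, an E-box that reads the same on both strands. The E-box was present in 12 of the 20 (60%), beside 1144 of 11934 tested genes with such a window (9.59%) and 1854 of all 27025 genes with one (6.86%). The median number of CpG dinucleotides in the window was 17.5 in germline genes and 16.0 in tested genes. These counts describe letters in a window and show no binding. The windows of Mael (chr1:166238745-166238994, minus strand), Hormad1 (chr3:95559427-95559676, plus strand) and Slc25a31 (chr3:40708621-40708870, plus strand), germline genes with an E-box described next, are given 5′ to 3′ with the E-box in capitals.
Mael: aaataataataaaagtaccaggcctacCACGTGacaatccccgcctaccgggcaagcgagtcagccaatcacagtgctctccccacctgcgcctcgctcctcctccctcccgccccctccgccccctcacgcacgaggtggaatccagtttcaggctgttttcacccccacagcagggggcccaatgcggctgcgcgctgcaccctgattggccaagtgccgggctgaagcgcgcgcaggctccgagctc
Hormad1: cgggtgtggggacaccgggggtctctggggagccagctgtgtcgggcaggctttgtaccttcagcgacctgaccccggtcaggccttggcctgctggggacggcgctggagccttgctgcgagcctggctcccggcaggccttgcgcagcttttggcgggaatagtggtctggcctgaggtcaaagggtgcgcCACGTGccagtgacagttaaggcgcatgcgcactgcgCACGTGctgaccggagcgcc
Slc25a31: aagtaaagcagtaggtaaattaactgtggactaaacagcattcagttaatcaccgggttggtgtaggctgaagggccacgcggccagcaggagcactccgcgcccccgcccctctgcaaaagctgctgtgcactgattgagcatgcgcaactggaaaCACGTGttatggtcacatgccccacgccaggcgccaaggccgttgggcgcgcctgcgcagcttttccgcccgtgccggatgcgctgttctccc

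The first base of the E-box lies 223 bases before the start in Mael and 93 in Slc25a31, and Hormad1 holds one at 57 and another at 20. Mael, a component of the piRNA pathway that silences transposons, rose from 57.3, 58.9 and 61.3 to 261, 254 and 265 in WT, and from 65.3, 59.4 and 53.2 to 95.8, 84.3 and 108 in iEZR_CA. The lines overlapped at ESC and were separate at T24 (interaction -1.45, SE 0.19, adjusted p = 1.4e-09 by edgeR). Hormad1, a protein of meiotic chromosome axes, went from 491, 519.5 and 520.2 to 1068, 1045 and 1012 in WT and from 519, 489 and 525 to 511, 517 and 559 in iEZR_CA, a change that was called in WT (1.02) and not in iEZR_CA (0.05). Slc25a31, an ADP/ATP carrier of the testis, rose by 1.47 in WT from a mean of 27.4, and in iEZR_CA it started at 64.3 and ended at 59.4.

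E-box and interaction did not go together gene by gene within this list. Of the 12 genes with an E-box, Sycp3, Brdt and Mov10l1 had no called interaction, and Asz1, Zcwpw1, Smc1b, Tuba3b, Rpl10l and Dazl had a negative one without an E-box in the window. Asz1 fell from 63.1, 67.0 and 39.2 to 22.9, 30.4 and 25.3 in iEZR_CA, while WT stayed between 10.1 and 22.2. Dazl, an RNA-binding protein of germ cells, fell in both lines, by 0.50 on the log2 scale in WT and by 0.87 in iEZR_CA. Tuba3a was the exception in direction, with an interaction of 0.31, and tubulin genes of this family are near copies of each other whose reads could be split between them.

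Imprinted genes are read from 1 parental copy and depend on DNA methylation. They had called interactions in 20 of 29 cases (69.0%, beside 38.3% of all genes), 7 positive and 13 negative. Beyond a factor of 2 there were 11, of which 9 were negative. Their median change was 0.872 in WT and 0.409 in iEZR_CA, with a median interaction of -0.406. The noncoding RNAs Meg3, Rian and Mirg, neighbors on chromosome 12 at 109541001-109749460 (GRCm38), moved in opposite directions in the lines. Rian went from 3706, 3705 and 3566 to 6785, 7062 and 6375 in WT, and from 6060.4, 5928 and 5774 to 3530.1, 3289.5 and 3326 in iEZR_CA. The lines exchanged places without overlap at either stage, and the interaction was -1.69 (SE 0.04, adjusted p = 5.9e-40 by edgeR).

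Meg3 and Mirg followed Rian with interactions of -1.74 and -1.48. Of the protein-coding genes of the same domain, which are read from the other parental copy, Rtl1 had a called interaction of -1.48, while Dlk1 did not pass (-0.43, SE 0.26). Rtl1 overlaps transcripts of the opposite strand, and the use of strand in counting is not stated in the sources used here, so its reads and theirs cannot be told apart.

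Other imprinted genes showed both signs. Magel2, a regulator of ubiquitin ligases, rose from a mean of 9.18 to 94.1 in WT and had 4.43, 12.6 and 22.4 at ESC and 5.40, 10.6 and 9.38 at T24 in iEZR_CA (interaction -3.79, SE 0.48). Peg10 rose by 2.72 and 1.31, Snrpn by 2.14 and 1.23, and Nnat by 1.80 in WT with a change of 0.41 in iEZR_CA. Plagl1, a zinc finger factor that restrains growth, stood against these. It fell from 3615, 3419 and 2993 to 177, 192 and 213 in WT, and only from 5263, 5296 and 5417 to 2083, 2072 and 1962 in iEZR_CA, an interaction of 2.76 (SE 0.09, adjusted p = 2.4e-17 by edgeR).

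**Figure D3:**
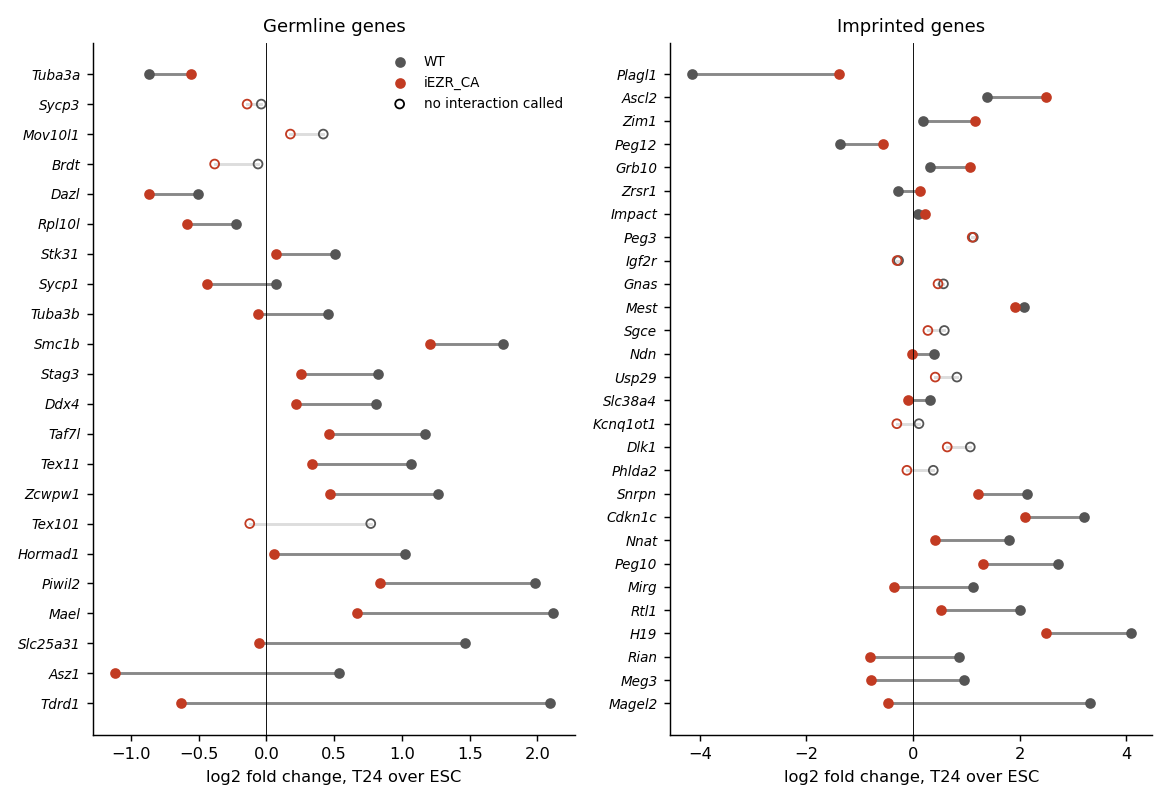
Log2 change from ESC to T24 of germline genes and imprinted genes in WT and in iEZR_CA cells, 1 row per gene, with a bar joining the lines and open circles where no interaction was called. Most germline genes lie to the right of 0 in WT and close to 0 in iEZR_CA (medians 0.789 and -0.001), and Rian, Meg3 and Mirg lie on different sides of 0 in the lines.

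Signaling genes split by pathway, and both Lefty genes had interactions beyond 3. Nodal signaling acts through activin receptors and SMAD2/3, and its targets Lefty1 and Lefty2 encode secreted inhibitors that limit it. Lefty1 had normalized counts of 284, 233 and 246 in WT ESCs and 703, 746 and 705 in WT T24 cells. In iEZR_CA it was 11.1, 14.2 and 11.2 at ESC and 719, 477 and 608 at T24. The interaction was 4.05 (SE 0.29, adjusted p = 9.5e-10 by edgeR). The lines were far apart before exit and overlapped after it, with iEZR_CA minus WT at -4.33 and then -0.29.

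Lefty2 moved in opposite directions. It fell from 851, 679 and 691 to 296, 359 and 259 in WT and rose from 46.5, 56.1 and 70.0 to 310.2, 218 and 223 in iEZR_CA, where the libraries of the lines overlapped at T24 (interaction 3.36, SE 0.23). Nodal fell by 0.74 on the log2 scale in WT and by 0.24 in iEZR_CA. The coreceptor Tdgf1 went the other way, falling by 0.27 and 1.19. Tgfbr2, a TGF-beta receptor, fell from 167, 141 and 135 to 19.3, 10.1 and 22.1 in WT and from 363, 337 and 365 to 127, 141 and 145 in iEZR_CA.

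Of 21 tested Nodal and TGF-beta pathway genes, 15 were called (71.4%, beside 38.3% of all genes), 11 positive and 4 negative. Of these 15, 11 were smaller responses, among them the falls of Acvr1b, Smad3, Smad7, Furin and Pcsk6, whose interactions ran from 0.54 to 0.96. The 4 negative members were Tdgf1, Foxh1, Smad2 and Skil. Skil, a repressor of SMAD activity, rose from 1132, 1059.7 and 952 to 6809.9, 7151 and 6912 in WT and from 868, 948 and 919.8 to 2923, 2802 and 2515 in iEZR_CA (interaction -1.14).

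BMP signaling, which supports naive cells through ID proteins, gave 7 called interactions among 19 tested genes, close to the background of 38.3%, but all 7 were positive where 21.5% of all genes were called in that direction. Id1 fell from 118, 112 and 132 to 59.2, 52.5 and 47.3 in WT and rose from 45.4, 56.9 and 35.0 to 82.3, 84.3 and 81.6 in iEZR_CA. The order of the lines was reversed without overlap at either stage (interaction 1.958, SE 0.22, adjusted p = 1.5e-11 by edgeR). Id3 rose by 0.46 in WT and 1.24 in iEZR_CA, and Id4 fell by 2.81 on the log2 scale in WT and by 0.84 in iEZR_CA. The inhibitor Smad6 fell from a mean of 408 to 155 in WT and had 387 and 435 in iEZR_CA, and the ligand Bmp7 fell by 2.53 and 0.93. Id2 did not pass the test (-0.11, SE 0.14), although it was already higher in iEZR_CA at ESC, with a mean of 467 against 93.5.

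FGF signaling through ERK drives exit. Of 24 listed ERK targets and feedback inhibitors, 13 had a called interaction (54.2%, beside 38.3% of all genes), 4 positive and 9 negative. Of the 13, 9 were smaller responses, and the median change of the list was 1.11 in WT and 1.01 in iEZR_CA. Egr1, an ERK target, had the largest interaction of the list (-1.73, SE 0.56), and it lost its call without 1 of the 12 libraries. It rose from a mean of 15.7 to 268 in WT and from 5.11 to 24.2 in iEZR_CA. The feedback genes did not move as a block. Spred3 rose from 145, 142 and 138 to 401, 446 and 426 in WT and was 102, 113 and 86.8 at ESC and 87.7, 99.5 and 91.9 at T24 in iEZR_CA (interaction -1.69, SE 0.15). Spry4 rose from a mean of 61.4 to 2025 in WT and from 97.2 to 1206 in iEZR_CA, and Spred1 rose by 1.78 and 1.04.

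Other ERK feedback genes rose in parallel. Dusp6, a phosphatase that removes ERK activity, rose by 3.00 in WT and 2.90 in iEZR_CA (interaction -0.10, SE 0.098, adjusted p = 0.46 by edgeR). Spry1 rose by 1.71 and 1.64, and Etv4 by 1.05 and 0.99. Dusp5 rose more in iEZR_CA (0.74 and 1.16).

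Among FGF ligands and receptors, 10 of 19 tested genes had a called interaction (52.6%, beside 38.3% of all genes), 5 in each direction. Fgf1 rose from a mean of 5.83 to 93.0 in WT and from 5.84 to 11.9 in iEZR_CA, and the lines did not overlap at T24 (interaction -2.85, SE 0.58). Fgf15 reached 366, 411 and 386 in WT at T24 and 17.5, 14.4 and 21.6 in iEZR_CA, but it was at the floor in iEZR_CA ESCs, and no fold change is given. Fgf4, the main ligand of ES cells, rose by 0.45 in WT and had a change of -0.11 in iEZR_CA. The receptor Fgfr2 rose more in iEZR_CA, by 1.44 against 0.67.

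The LIF and STAT3 pathway was called in 15 of 17 tested genes, 9 positive and 6 negative, with 9 smaller, 4 larger and 2 opposite responses. Both opposite responses were core components. Lif, the ligand, fell from 269.7, 268 and 288 to 155, 147 and 166 in WT and rose from 282, 282 and 284 to 364, 388 and 364 in iEZR_CA. Jak2, the kinase, fell from 310.2, 315 and 327 to 163, 198 and 197 in WT and rose from 422, 424 and 456 to 533, 565 and 567 in iEZR_CA. At T24 the iEZR_CA libraries of both genes were above all WT libraries, and the interactions were 1.24 (SE 0.12) and 1.18 (SE 0.10). In contrast Socs3, the most direct STAT3 target of the list, fell by 5.30 and 5.10, with no called interaction (0.20, SE 0.16, adjusted p = 0.36 by edgeR), and Pim1 and Junb fell more in iEZR_CA, with interactions of -0.72 and -0.65.

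The WNT pathway loses its stimulus when the GSK3 inhibitor is withdrawn. Its targets and feedback genes were called in 10 of 21 tested cases (47.6%, beside 38.3% of all genes), 5 in each direction. The median interaction of the list was 0.220, although the median change was -0.077 in WT and -0.151 in iEZR_CA, so these summaries differ in sign. Direct targets that collapse on withdrawal did so in both lines. Axin2 fell by 1.36 and 1.04 (adjusted p = 0.13 by edgeR), and Sp5 went from 478 and 613 to the floor in both. Notum, a secreted inhibitor of WNT proteins, fell from 1208, 1277 and 1314 to 855, 899 and 876 in WT and rose from 478, 479.6 and 438 to 796, 731 and 837 in iEZR_CA, an opposite response (interaction 1.29, SE 0.08). Lef1 rose less in iEZR_CA (6.05 and 3.62).

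Genes of the MYC network leaned to negative interactions. Of 20 MYC network genes, 13 had a called interaction (65.0%, beside 38.3% of all genes), 2 positive and 11 negative, with a median of -0.198. Mycn, a driver of growth in early embryonic cells, rose by 0.89 in WT and had a change of -0.06 in iEZR_CA (interaction -0.94), and the nucleolar genes Ncl, Npm1 and Nop56 had interactions of -0.19, -0.26 and -0.23. Among G1 cyclins and CDK inhibitors 14 of 21 were called, 7 in each direction, with 10 smaller and 4 larger responses.

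Ccnd2, a D-type cyclin, separated the lines most in the cell cycle list. It rose from 21.4, 23.7 and 21.3 to 668, 609 and 683 in WT, but from 7.75, 11.7 and 11.2 to 45.9, 47.9 and 57.2 in iEZR_CA (interaction -2.58, SE 0.40, adjusted p = 1.6e-07 by edgeR). Ccnd1 and Ccne1 rose less as well, by 0.61 against 1.14 and 0.40 against 0.76, whereas E2f2, Cdk6 and Rb1 rose more in iEZR_CA, with interactions of 0.87, 0.45 and 0.40.

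p53 target genes were called in 12 of 20 cases (60.0%, beside 38.3% of all genes), 9 positive and 3 negative, mostly with small interactions. Pmaip1, which encodes the cell death protein Noxa, was the exception. It rose from 74.2, 94.1 and 89.4 to 871, 952 and 886 in WT and from 117, 107 and 111 to 233, 245 and 203 in iEZR_CA (interaction -2.33, SE 0.13). Of the other 2 negative members, Plk2 had -0.33 and Ei24 had -0.17, and the 9 positive ones ran from 0.12 (Aen) to 0.70 (Perp).

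Among genes of metabolism, smaller responses made up most of the calls, as they did over all genes (4510 of 7081). Glycolysis and hypoxia targets were called in 18 of 24 tested genes, 5 positive and 13 negative, with 13 smaller, 1 larger and 4 opposite responses, and a median change of 0.411 in WT and 0.079 in iEZR_CA. Ldha, which makes lactate from pyruvate, rose from 6031, 5997 and 6129 to 11667, 11279 and 10819.7 in WT and fell from 5197, 4967 and 4680.2 to 3882, 3794 and 4021 in iEZR_CA. WT was above iEZR_CA at both stages, by far more at T24 (interaction -1.23, SE 0.09, adjusted p = 1.2e-07 by edgeR). Tpi1 also changed in opposite directions (0.33 and -0.26), and Egln3 and Bnip3, which respond to low oxygen, rose by 2.03 and 3.27 in WT, where Bnip3 rose by 1.90 in iEZR_CA and Egln3 had a change of 0.25.

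The glucose transporter Slc2a3 was the strongest positive member of the glycolysis list. It fell from 31118, 30863 and 29472 to 12469, 12059 and 12133 in WT and from 25677, 25001 and 24886 to 21635, 22508 and 21597 in iEZR_CA (interaction 1.13, SE 0.04). Slc2a1, another glucose transporter, rose by 0.69 and 0.34. Hk1 fell less in iEZR_CA and Hk2 fell more, with interactions of 0.74 and -0.41.

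Cholesterol synthesis rose with exit in both lines, and less in iEZR_CA: 19 of 25 genes had a called interaction, 4 positive and 15 negative, of which 15 were smaller, 3 larger and 1 opposite responses. The median change was 0.499 in WT and 0.352 in iEZR_CA. Sqle, which makes squalene epoxide, rose from a mean of 3864 to 7369 in WT and from 6084 to 6792 in iEZR_CA, so the lines differed by less at T24 than at ESC.

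Fatty acid synthesis was called in 12 of 15 genes, 5 positive and 7 negative. The desaturase Scd2 rose by 0.40 in WT with a change of 0.00 in iEZR_CA, and Acss2, which activates acetate, rose by 0.24 and 1.16. Of the 13 mitochondrial mRNAs 4 were called (30.8%, beside 38.3% of all genes), all positive, where 21.5% of all genes were called positive. These were mt-Nd6, mt-Co2, mt-Co3 and mt-Atp6, with interactions between 0.17 and 0.40, and none was called with spike-in scaling. The call of mt-Atp6 was also lost when any 1 of 8 libraries was left out.

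Genes of the ATF4 branch of the stress response, mostly amino acid enzymes and transporters, fell less in iEZR_CA. Of 23 tested, 13 were called (56.5%, beside 38.3% of all genes), 11 positive and 2 negative. The median changes were -0.558 in WT and -0.291 in iEZR_CA. The largest positive interactions were those of Vldlr (1.28), Nupr1 (0.95) and Chac1 (0.83), and the 2 negative ones were those of Slc7a11 (-1.18) and Slc3a2 (-0.19), whose proteins together form the cystine transporter. Asns, a classical ATF4 target, fell by 1.44 and 1.43 on the log2 scale (interaction 0.00, SE 0.04).

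Heat shock genes were called in 10 of 15 cases (66.7%, beside 38.3% of all genes), 2 positive and 8 negative. Hspb1, a small heat shock protein that binds actin filaments, fell from 6459, 6719 and 7136 to 5264, 5225 and 4823 in WT and rose from 5685, 5324 and 5538 to 7298, 7254 and 7547 in iEZR_CA. The order of the lines was reversed without overlap at either stage (interaction 0.83, SE 0.05). Hspd1 and Hsph1 had interactions of -0.32 and -0.46 and were not called with spike-in scaling.

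Lysosomal genes and the TFE3 axis, which promotes self-renewal when TFE3 is in the nucleus, were called in 20 of 24 cases, 15 positive and 5 negative, and 18 of the 20 were smaller responses. The median change was -0.741 in WT and -0.366 in iEZR_CA. Tfeb, a transcription factor of lysosomal genes, fell from 1321, 1365 and 1420.2 to 214, 235 and 194 in WT and from 739.7, 759 and 861 to 609.7, 607 and 649 in iEZR_CA. It started lower and ended higher in iEZR_CA (interaction 2.34, SE 0.09, adjusted p = 2.0e-31 by edgeR). The related factor Mitf fell by 4.02 and 2.83 on the log2 scale, and Tfe3 itself rose by 0.94 and 0.38. The cathepsin genes Ctsb and Ctsl fell by less in iEZR_CA, with interactions of 0.47 and 0.41.

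**Figure D4:**
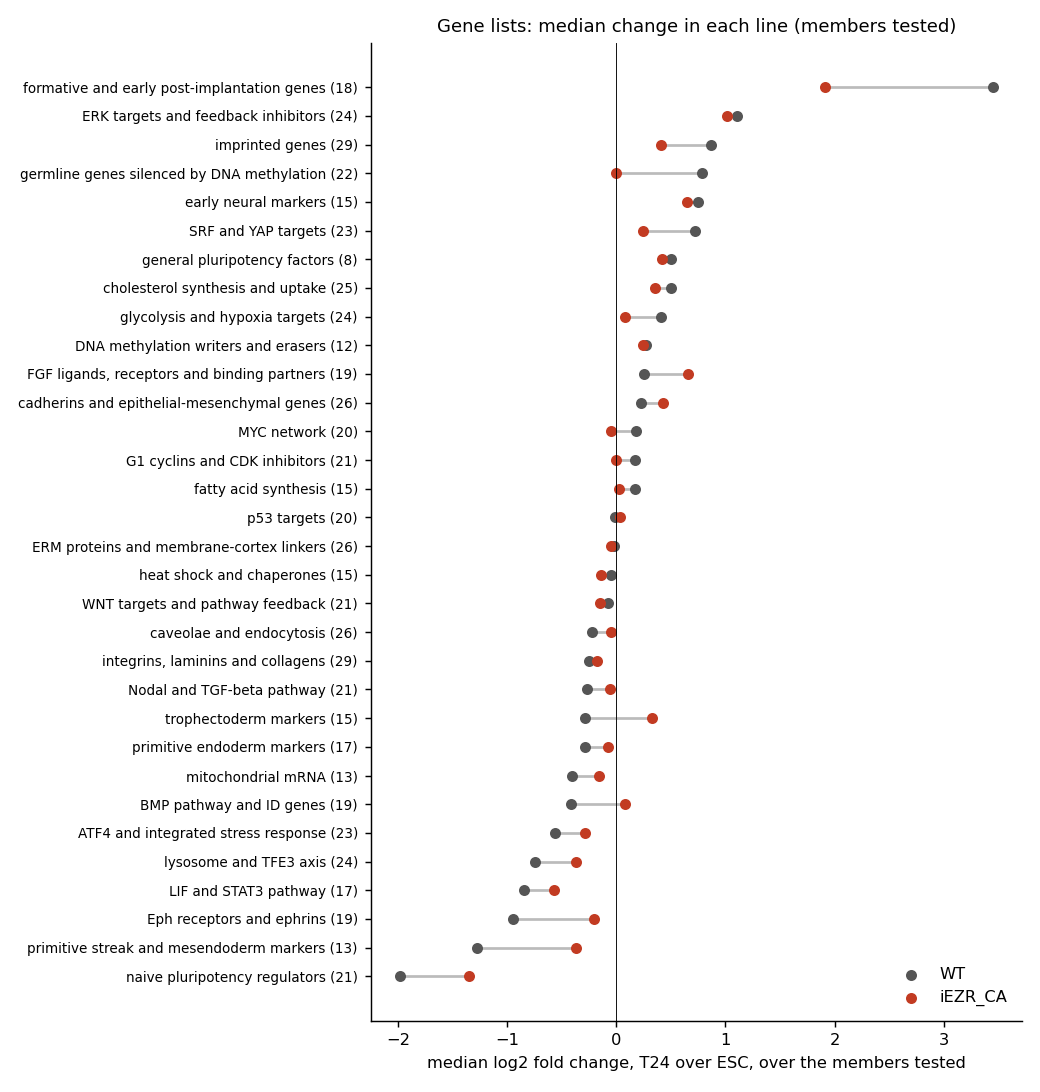
Median log2 change from ESC to T24 in WT and in iEZR_CA cells for the gene lists, with the number of tested genes. Of the 33 lists, all but the two-cell-like list are drawn. The formative list has the largest distance (3.45 and 1.92). In 5 lists (WNT, G1 cyclins, cadherins, early neural and the two-cell-like list, which is not drawn) the difference between the medians has another sign than the median interaction.

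Ezrin acts at the actin cortex and at sites of adhesion. Of 23 tested targets of the actin-regulated factors SRF and YAP, 14 were called (60.9%, beside 38.3% of all genes), 5 positive and 9 negative. They comprised 8 smaller, 1 larger and 5 opposite responses, and the list medians were 0.722 in WT and 0.247 in iEZR_CA. Actb, the main cytoplasmic actin, rose from 71134, 74268 and 73142 to 103527, 105459 and 105509 in WT and was 89003, 89204 and 87345 at ESC and 87814, 88509 and 90369.9 at T24 in iEZR_CA. iEZR_CA cells thus lay between the WT stages at both times, and their change was not called (0.00, SE 0.02, with an interaction of -0.51, SE 0.03). Tpm2, a tropomyosin, rose in WT from 88.8, 95.6 and 106 to 184, 183 and 183 and fell in iEZR_CA from 205, 192 and 181 to 166, 149 and 169.8. Srf rose by 0.72 in WT with a change of 0.10 in iEZR_CA, and Tagln2 and Actg1 were opposite responses. Ccn2, a classical YAP target, rose by 0.86 and 0.85.

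Of the 26 ERM proteins and membrane-cortex linkers, 11 were called (42.3%, beside 38.3% of all genes), 8 positive and 3 negative, and the list median of -0.024 has no stable sign, since 5 alternatives gave a positive value. Msn, which encodes moesin, rose by 0.11 in WT and fell by 0.42 on the log2 scale in iEZR_CA, where it started higher (mean 8052 against 4043). Rdx, which encodes radixin, was not called (-0.09, SE 0.04). The adaptor Slc9a3r2 fell by 0.22 in WT and rose by 0.61 in iEZR_CA. Myo1a, a class I myosin, fell from a mean of 291 to 27.7 in WT and from 33.8 to 13.2 in iEZR_CA, the only member beyond a factor of 2.

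Caveolae and endocytosis genes were called in 12 of 26 tested cases (46.2%, beside 38.3% of all genes), mostly with small interactions. Of the 12, 10 were positive and 2 negative, where 21.5% of all genes were called positive. Dnm1, a dynamin, fell by 1.09 on the log2 scale in WT with a change of 0.20 in iEZR_CA, and the widely expressed Dnm2 had an interaction of 0.31. Lrp2, an endocytic receptor, rose by 3.46 and 2.26. Cav1 and Cav2 reached at most 2 and 1 counts in any of the 12 libraries and were not tested.

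Integrins, laminins and collagens were called in 21 of 29 tested genes, 17 positive and 4 negative, where 21.5% of all genes were called positive. Itgb3, an integrin chain that binds RGD ligands, fell from 484, 581 and 534 to 104, 107 and 110.3 in WT and from 248, 263 and 279 to 174, 206 and 190.4 in iEZR_CA. It was lower in iEZR_CA at ESC and higher at T24, in every library (interaction 1.89, SE 0.13, adjusted p = 1.6e-19 by edgeR). Itga9 rose more in iEZR_CA, from 18.8, 20.1 and 23.8 to 219, 210.4 and 218, against 89.9, 129 and 142 to 318, 315 and 342 in WT.

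The basement membrane genes Col4a1 and Col4a2 rose by 1.99 and 1.32 in iEZR_CA and by 0.79 and 0.38 in WT, and Nid2 was an opposite response (-0.25 and 0.27). Itgb1, the shared beta chain of many integrins, was among the 4 negative members, with a rise of 0.64 in WT and a change of 0.05 in iEZR_CA. Fn1, which encodes fibronectin, fell equally in the lines (-0.61 and -0.62).

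Eph receptors and ephrins, which signal by cell contact, were called in 12 of 19 tested genes (63.2%, beside 38.3% of all genes). These were 9 positive and 3 negative, and 7 were beyond a factor of 2. The median change of the list was -0.947 in WT and -0.206 in iEZR_CA. Efnb2 rose from 117, 97.2 and 127 to 2867, 2869 and 2798 in WT and from 167, 153 and 151 to 1359.7, 1182 and 1227 in iEZR_CA (interaction -1.66, SE 0.11). The ephrins Efna2, Efna3 and Efna4 fell in WT by 1.12, 1.59 and 0.95 on the log2 scale, and none of their changes was called in iEZR_CA. The receptor Ephb2 fell from a mean of 357 to 171 in WT and was 242 and 232 in iEZR_CA.

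Cadherins and genes of the epithelial-mesenchymal balance were called in 15 of 26 cases (57.7%, beside 38.3% of all genes), 8 positive and 7 negative. The median interaction was -0.118, although the median changes were 0.225 and 0.431. The epithelial genes Epcam and Grhl2 rose less in iEZR_CA (interactions -1.46 and -3.22). The epithelial keratin Krt8 went the other way, with a rise of 0.92 in iEZR_CA and a change of -0.24 in WT that was not called (interaction 1.16, SE 0.23), and so did Cldn6 and Grhl3 (0.76 and 0.93). Among mesenchymal genes, Vim, Snai1 and Zeb1 fell in WT and had no called change in iEZR_CA, and Twist1 rose more in iEZR_CA (interaction 0.80). Vim went from 7356, 7653 and 7713 to 3845, 3856 and 3569 in WT and was 4376, 4395 and 4501 at ESC and 4577, 4411 and 4569 at T24 in iEZR_CA, where its change was not called. Snai1, a repressor of Cdh1, fell from 106, 97.9 and 82.6 to 39.9, 34.3 and 17.3 in WT and was 75.3, 78.7 and 82.6 and then 98.5, 93.4 and 91.0 in iEZR_CA (interaction 1.76, SE 0.23). Cdh1 fell slightly more in iEZR_CA (-0.13 and -0.36).

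Markers of other lineages were called in 46.2% to 58.8% of the genes tested in each list, beside 38.3% of all genes, and 21.5% of all genes were called positive. Of 17 tested primitive endoderm markers 10 were called, 8 positive. Of 15 trophectoderm markers 8 were called, 7 positive. All 6 called among 13 mesendoderm markers and 5 of 7 called among 15 neural markers were positive. Some markers were well expressed in these cells, such as Tead4 and Tfap2c. The trophectoderm list was higher in iEZR_CA before exit and more so after it, with a median difference between the lines of 0.77 at ESC and 1.36 at T24. Averaged over its 15 tested genes, log2(normalized count + 1) was 5.67 to 5.82 in WT ESCs, 4.84 to 5.004 in WT T24 cells, 6.404 to 6.54 in iEZR_CA ESCs and 6.18 to 6.23 in iEZR_CA T24 cells, while Cdx2 was at the floor at T24 in both lines. Other defining genes were low: Sox17 had means of 12.5 to 25.3 in the 4 groups and T had 3.07 to 18.98, and Ttr and Cer1 reached at most 0 and 1 counts in any of the 12 libraries. Lama1, Col4a1, Col4a2 and Sparc stand both among the primitive endoderm markers and among the matrix genes. The part of rare differentiating cells in the results was not tested. In bulk RNA, fewer cells of a type and less RNA per cell cannot be told apart.

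Several lineage markers fell less in iEZR_CA. Evx1, a mesodermal factor, went from 24.7, 36.7 and 22.99 to 3.86, 1.01 and 1.58 in WT and from 12.2, 8.37 and 12.6 to 8.09, 9.12 and 8.44 in iEZR_CA. Gata4 fell from a mean of 97.5 to 19.9 in WT and was 17.4 and 15.9 in iEZR_CA, and Tfap2c, which is also expressed in naive cells, fell by 5.70 and 3.80 on the log2 scale. Tubb3, a tubulin of neurons that these ES cells also expressed, fell from 2283, 2471 and 2413 to 665, 649 and 656 in WT and rose from 1044, 990.2 and 917 to 1237, 1219 and 1171 in iEZR_CA (interaction 2.16, SE 0.07, adjusted p = 8.1e-39 by edgeR). Zfp423, a zinc finger factor, rose by 3.85 in WT and 5.40 in iEZR_CA, from a start of 115 and 17.8. Two-cell-like genes were called in 1 of 5 tested.

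Outside the lists, the genes with the largest interactions showed the same 3 kinds of response. Among smaller falls, Rasgef1a, an exchange factor for Ras-like proteins, went from 349.5, 287 and 293 to 12.9, 8.08 and 7.88 in WT and from 221, 287 and 272 to 91.7, 109 and 105 in iEZR_CA (interaction 3.54, SE 0.24). Among smaller rises, Pax8 rose from a mean of 4.19 to 417 in WT and from 22.1 to 97.5 in iEZR_CA (interaction -4.55, SE 0.38), and Thbs1, a secreted matrix protein, from 5.97 to 1086 and from 27.0 to 422 (interaction -3.52, SE 0.38).

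Several larger responses began from a difference between the lines at ESC. Ror1, a receptor for WNT5A, was at the floor in iEZR_CA ESCs and reached 274, 264 and 213 at T24, against 28.1, 25.2 and 30.6 and then 178, 188 and 181 in WT. In the falling direction Cdh20, a cadherin, went from 243, 252 and 265 to 10.8, 22.8 and 15.9 in iEZR_CA, while WT had 15.7, 13.8 and 14.5 and then 15.5, 11.1 and 6.31. After 24 h these lines overlapped. Lad1 fell from a mean of 456 to 30.8 in iEZR_CA and from 127 to 44.6 in WT, and Rgs11 from 223 to 23.7, with 45.1 and 28.96 in WT.

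Opposite responses beyond a factor of 2 were led by Lmx1b and Rapgef4. Lmx1b, a LIM homeobox factor, fell from 179.8, 150.0 and 146 to 27.1, 25.2 and 25.2 in WT and rose from 48.7, 46.0 and 44.8 to 135, 132 and 132 in iEZR_CA. The groups did not overlap at either stage, and the order of the lines was reversed (interaction 4.10, SE 0.22). Ano1, a chloride channel, Rac2, a small GTPase of blood cells, and Cpsf4l had the same pattern, with interactions of 3.13, 3.03 and 2.96. Rac2 went from 103, 97.9 and 99.6 to 45.1, 42.4 and 50.4 in WT and from 41.0, 31.8 and 33.6 to 115, 138 and 134 in iEZR_CA.

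In the other direction, Rapgef4, a cyclic AMP sensor that activates Rap proteins, rose from 1.12, 1.53 and 6.81 to 76.0, 99.9 and 88.3 in WT and fell slightly from 280.2, 279.6 and 295 to 235, 249.2 and 238 in iEZR_CA (interaction -4.90, SE 0.30). Its size rests on WT ESC counts close to 0, and it was -6.09 without WT ESC replicate 3. Klf7 rose from a mean of 97.8 to 370.1 in WT and fell from 403 to 287 in iEZR_CA. Bfsp1, an intermediate filament protein of the lens, rose from 24.2 to 86.7 and fell from 79.9 to 34.3. The receptor Ntrk2 and the semaphorin Sema6a completed the set, with interactions of -2.35 and -2.73. In Rapgef4 and Klf7, WT cells moved toward a level that iEZR_CA cells had at ESC.

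An interaction can arise because the lines differed before exit, after it, or both. Of the 1525 genes, 440 (28.85%) differed between the lines at T24 and not at ESC, and 329 of these were smaller responses. Another 296 (19.41%) differed at ESC and not at T24. The order of the lines turned round in 380 (24.92%), and in 242 (15.87%) and 133 (8.72%) the lines differed with the same sign at both stages, by more at T24 and by less, respectively. The remaining 34 genes (2.23%) were called at neither stage. As background, 54.5% of all genes tested differed between the lines at ESC and 60.9% at T24.

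By kind of response the distance between the lines moved differently. For smaller responses the median absolute difference between the lines was 0.63 at ESC and 1.26 at T24, so the lines drew apart. For larger responses it was 1.25 at ESC and 0.70 at T24, so the lines came together. For opposite responses it was 0.88 and 0.94. Tbx3, Mael and Smad6 are genes of the first kind, Lefty1, Itga9 and Cdh20 of the second, and Rian, Id1 and Lmx1b of the third. These medians follow in part from how the kinds are defined, and they are given as a description.

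**Figure D5:**
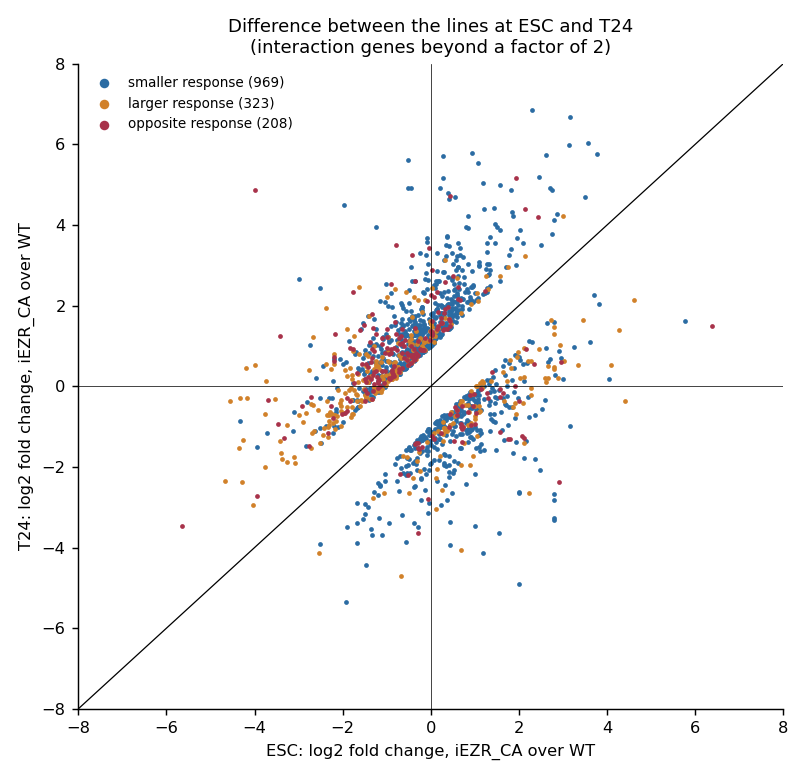
Log2 difference between iEZR_CA and WT at ESC (x axis) and at T24 (y axis) for genes with an interaction beyond a factor of 2, colored by kind of response. Of the 1525 such genes, the 25 with neither change called are not drawn, and 1 gene lies outside the axes. Smaller responses spread along the vertical axis, with a median absolute difference of 0.63 at ESC and 1.26 at T24, and larger responses along the horizontal axis, with 1.25 and 0.70.

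The 440 genes that differed at T24 alone could be followed in the T48 libraries, whose differences did not enter their selection. Of the 258 that were higher in iEZR_CA at T24, 98 were also higher at T48, 36 were lower and 124 did not pass, with a median difference of 1.46 at T24 and 0.39 at T48. Of the 182 that were lower in iEZR_CA at T24, 84 were also lower at T48, 34 were higher and 64 did not pass, with medians of -1.44 and -0.40. Over all genes tested, 61.1% differed between the lines at T48.

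By chromosome the interaction was flat. Among genes with a mean normalized count above 50, the median interaction lay between -0.044 and 0.086 on the autosomes and the X chromosome. Genes of chromosome 8 were higher in iEZR_CA at both stages (medians 0.191 at ESC and 0.249 at T24) and genes of chromosome 14 lower (-0.302 and -0.352), but the median interactions were 0.044 and -0.014. Only the 15 mitochondrial genes had a larger median interaction, of 0.215. Of these 15, 4 were called (26.7%), beside 41.8% to 52.7% on the autosomes and the X chromosome.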

How the data were processed

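RNA was sequenced from WT and iEZR_CA cells at ESC, T24 and T48, 3 libraries in each of 6 groups. Per the labels and the paper, the authors used Trim Galore 0.6.5 for trimming, GSNAP for alignment to mm10 (GRCm38), and HTSeq with Ensembl 81 gene models. What they deposited are raw counts, 1 whole number per gene and library, not normalized. Strand use is not given in the sources used here. The table holds 53801 genes, 92 spike-in sequences and 5 rows of unassigned reads, which were kept out of tests, and 53706 gene identifiers were found in GENCODE M21, which gave symbols and coordinates. Unassigned reads and spike-in sequences left 75.7% to 77.9% of a library's reads on genes in the libraries compared.

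Counts of all 18 libraries were fitted with edgeR 4.0.16 in R 4.3.3 (filterByExpr by group, TMM factors 0.975 to 1.03, 1 term per group, 12 residual degrees of freedom, robust quasi-likelihood test, Benjamini-Hochberg adjustment over 18469 genes, threshold 0.05, prior count 0.125). Contrasts were the interaction, the change from ESC to T24 in each line, and the lines at each stage. Normalized counts come from DESeq2 1.42.0 size factors. A group with at most 3 counts in each library was taken as at the floor, and no fold change involving it is printed. Genes with such a group nevertheless stayed in the counts of interactions beyond a factor of 2 and of kinds of response. Among genes beyond a factor of 2, 58 were at the floor in WT T24 cells alone and 29 in WT ESCs alone. Another 32 were at the floor in iEZR_CA ESCs alone and 11 in iEZR_CA T24 cells alone, and others in more than 1 group. The test was tried on simulated counts for 18237 genes with this interaction. Of 200 changed genes of mixed fold sizes 86% were recovered, and 0.055% of unchanged genes were called. Every simulated gene had the same spread, close to the common coefficient of variation of 2.98%, and scaling had no error. These shares therefore do not describe genes with more spread, or errors of scaling, in the real data. The 12 pairs of libraries within groups differed by more than sampling noise (chi-square per degree of freedom 1.56 to 3.33). Intervals cover the fit only.

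Genes were named by rule: Ezr, the 8 largest interactions in each direction, the 5 largest in each direction of each kind of response (mean normalized count of at least 50), and up to 5 called members of each list. Other list members were named after their values were seen. The comparison and the 33 lists were chosen with earlier results of these data known, and lists are described by counts and medians only, with no test. Alternatives were other scalings (size factors, spike-in), DESeq2, limma voom 3.58.1, other filters and thresholds, the 12 libraries alone, and leaving out each library. Promoter windows come from RefSeq (GRCm38.p6). Some items are not reported here.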

Additional observations from a re-analysis of the deposited data

Results flagged for a closer look

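The change from ESC to T24 differed between the lines, by the test of the difference itself, for 7081 genes, of which 1525 were beyond a factor of 2 and 208 of these had called changes of opposite sign. The 5 named genes with the largest interactions in each direction among those with changes of opposite sign were these. Positive interactions, where WT fell and iEZR_CA rose, were those of Lmx1b (4.10), Lefty2 (3.36), Ano1 (3.13), Rac2 (3.03) and Cpsf4l (2.96). Negative ones, where WT rose and iEZR_CA fell, were those of Rapgef4 (-4.90), Bfsp1 (-3.05), Sema6a (-2.73), Klf7 (-2.37) and Ntrk2 (-2.35). Outside the gene counts, the share of reads dropped for low alignment quality reached 1.02% in iEZR_CA libraries, above the 0.519% to 0.593% of the WT libraries at ESC and T24, and its part in any result was not tested. Groups of 3 libraries are too small for a test of single outlying libraries.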

How the results depend on the processing

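The count of genes with an interaction was 7081 as reported, 2416 with libraries scaled by spike-in sequences, and 6441 to 6920 with 1 library left out. The count beyond a factor of 2 was 1525, and 793 when genes with a mean below 50 normalized counts were left out. With that filter there were 491 smaller and 142 larger responses (969 and 323 as reported), the fewer genes tested being part of it. Against a factor of 1.5 by glmTreat, opposite responses fell to 33 from 208. Leaving out 1 library gave 1437 to 1510 genes beyond a factor of 2, 905 to 972 smaller, 302 to 330 larger and 188 to 216 opposite responses. The cause of the loss with spike-in scaling was not tested. DESeq2 called 1254 genes beyond a factor of 2, 1236 of them shared with the 1525. Of the 175 named genes, no interaction changed sign under any alternative, 35 were no longer called with spike-in scaling, and 17 lost the call without at least 1 single library. Among the latter, Slc28a3 went to -2.20 without WT T24 replicate 2, Egr1 to -1.66 without iEZR_CA ESC replicate 1, and Itga8 and Myc to 1.06 and -0.43 without iEZR_CA ESC replicate 2. Pou3f1, Sox7, Nkd1, Axl, Hand1, Hoxb1 and mt-Atp6 each lost it for 4 or more of the 12 libraries left out in turn. The median interaction of primitive endoderm markers turned to -0.246 with DESeq2 (0.338 as reported), that of the 5 two-cell-like genes ran from -0.406 to 0.18, and that of ERM proteins and linkers from -0.045 to 0.035. No paired analysis was possible because the labels give plate wells and no replicate numbers. At means of a few counts, as for T (SE 0.80), changes of a factor of 2 were not detectable at this depth.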

Other observations

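Families found by gene symbol after the values were seen showed small shifts. In several of them, given first, the calls were mostly of one sign. Of 86 tested genes of the respiratory chain and ATP synthase, 30 had a called interaction, 29 positive and 1 negative, with a median of 0.101. Calls in the families named next were mostly negative, where 16.9% of all genes were called negative. Of 89 cytosolic ribosomal protein genes 20 were called (22.5%), 19 of them negative (median -0.041), and of 77 mitochondrial ribosomal protein genes 22 were called (28.6%), 16 negative, so calls in both were less frequent than over all genes. Of 54 translation initiation factors 28 were called, 22 negative, all 12 called among 38 proteasome subunits were negative, and 7 of the 8 subunits of the chaperonin TRiC were called, all negative (median -0.190). Of 16 genes of replication licensing and origins 10 were called, 9 negative. Calls were of mixed sign in 369 zinc finger Zfp genes, with 151 called (40.9%), 88 positive and 63 negative. They were mixed as well in 20 genes of the V-type proton pump, with 8 called (40.0%), 3 positive and 5 negative. Over all genes, 38.3% were called and 21.5% were called positive.

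Genes of membrane transport also had interactions beyond a factor of 2. Over all genes 38.3% were called, 21.5% were called positive and 8.26% were beyond a factor of 2. Of 280 solute carriers 141 were called (50.4%), 92 positive and 49 negative, and 38 beyond a factor of 2. Of 58 tested potassium channel genes 20 were called (34.5%, less often than over all genes), 19 positive, and 15 beyond a factor of 2. Only 2 of 17 clustered protocadherins were called (11.8%). These families were not tested against other genes, and genes within a family are not independent.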
